A study of Mus musculus with 31 samples.

Results

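Regulatory T cells (Tregs) sorted from mammary tumors were compared with Tregs sorted from the lymph nodes draining such tumors. The members were chosen by tissue label within the tumor-bearing mice: 3 tumor libraries and 3 lymph node libraries, 6 of the 31 libraries of the series. Both groups came from K14cre;Cdh1F/F;Trp53F/F (KEP) mice on the FVB/N background with a spontaneous mammary tumor of 225 mm2, each library from 1 mouse, and each of the 3 dates in the sample titles appears once in each tissue. Both groups carry the same alleles: Cre under the keratin 14 promoter removes E-cadherin and p53 in epithelium, so Trp53 and Cdh1 do not check the labels of sorted T cells. The labels do not give the animals' age. Cells were sorted as live CD45+ CD3+ CD4+ CD8- CD25+, with no gate on FOXP3, which means that activated conventional T cells with CD25 could be included. Tumor replicates 1, 2 and 3 held 30000, 70000 and 70000 sorted cells, and each lymph node library 70000. Tumors had been digested with collagenase A and DNase at 37 °C, and no digestion is stated for lymph nodes, so tissue and digestion cannot be told apart in this comparison. The KEP lung libraries, from tissue digested with Liberase, are therefore given beside the results.

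Tregs restrain other immune cells. They depend on the transcription factor FOXP3 and on IL-2 received through CD25, and they act through CTLA-4, consumption of IL-2, adenosine made by CD39 and CD73, and cytokines such as IL-10. Resting Tregs circulate through lymph nodes with CCR7 and S1P receptor 1 and express the transcription factors TCF-1 and LEF-1. Effector Tregs in tissues lose that programme and carry receptors such as CCR8, ST2, 4-1BB and OX40.

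Total counts were 11149707, 11502183 and 10727207 in tumor and 14044495, 11207373 and 11248297 in lymph node. Levels below are CPM, the count of a gene scaled to the library's total with TMM factors, with replicates 1, 2 and 3 given in that order. Differences are log2 fold changes of tumor against lymph node with their standard error (SE). They were tested by edgeR's quasi-likelihood test, and "rose", "fell" and "called" mean a Benjamini-Hochberg adjusted p under 0.05. Of 12903 genes tested, 3414 were called higher in tumor (26.5%) and 2355 lower (18.3%), together 44.7%, with a median log2 fold change of 0.04 over all genes. With upper-quartile factors in place of TMM 3099 were higher and 3163 lower. Without lymph node replicate 1, 2 or 3 the higher count was 2520, 2291 or 2374 and the lower 1242, 1007 or 1046. Those fits tested 13589, 13572 and 13548 genes. Without tumor replicate 1, 2 or 3 the higher count was 4344, 3182 or 3465 and the lower 3308, 1761 or 2617. Those fits tested 13539, 13081 and 13079 genes. List counts given below are to be read beside the 26.5% higher and 18.3% lower over all genes. Those with a library left out are to be read beside the totals of these fits. A chi-square test of the counts over genes gave 94.5 to 188.9 per degree of freedom between tumor libraries and 5.69 to 10.4 between lymph node libraries, so no pair was a duplicate and the tumor libraries differed more among themselves. The p-values measure the spread between these libraries of single mice. The labels do not say whether the tumor and lymph node libraries of a date came from the same mouse. The main test treats all libraries as independent.

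The tumor libraries differed in how much T cell RNA they held. Summed over 10 pan-T genes (among them Cd3e, Lck and Zap70), the level was 5410.3, 3070.1 and 1693 CPM in tumor and 4733, 5299 and 5176 CPM in lymph node. Relative to the lymph node mean the tumor libraries stood at 106.7%, 60.6% and 33.4%. The groups overlapped, and the difference did not pass an exact two-sided permutation test (p = 0.4, where 3 against 3 libraries cannot go below 0.1). Gene by gene edgeR called 1 of the 10, Skap1 (log2 fold change -1.30, adjusted p = 0.0233), lower in tumor, and 8 of the 10 lower without tumor replicate 1. Skap1 was not called without any 1 lymph node library (adjusted p 0.0662 to 0.0797) or without tumor replicate 2 (0.0749). Cd8a, which the sort excluded, was at 0, 3.37 and 4.02 CPM in tumor and 1.25, 1.52 and 0.581 CPM in lymph node.

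Transcripts of other cell types were present in all tumor libraries, in unequal amounts. Macrophage and monocyte markers summed to 1816, 8692 and 2589 CPM in tumor and 286, 299.8 and 329 CPM in lymph node. Fibroblast markers summed to 8364, 17989 and 18221 CPM against 609, 623 and 766. That list holds Thy1, which T cells also express, so its sum in lymph node need not be fibroblast RNA. Tumor replicate 2 was the highest in macrophage RNA. Replicate 1, with the highest pan-T level of the tumor libraries, also held collagen and macrophage transcripts. Epithelial markers summed to 203, 297 and 2704 CPM against 18.6, 20.3 and 23.3, and milk and fat cell markers to 33.1, 42.2 and 5432 against 2.83, 3.37 and 2.91. Tumor replicate 3 stood apart in both, and Cdh1, the gene of E-cadherin, was at 6.23, 9.59 and 235 CPM in tumor against 1.18, 1.1 and 3.41 CPM in lymph node. B cell markers summed to 288, 149 and 55.4 CPM in tumor against 920.1, 867 and 932. The sum was lower in every tumor library, while Ebf1 of that list rose (log2 fold change 4.24, adjusted p = 0.00387). Pax5, which was not tested, was at 0 in every tumor library. Dendritic cell markers summed to 1001, 3547 and 839 CPM in tumor against 192, 129.8 and 178, neutrophil markers to 138, 2516 and 86.9 CPM in tumor against 4.01, 4.81 and 10.8, and red cell and platelet markers to 37, 123 and 81.6 CPM in tumor against 4.14, 3.04 and 2.16. These 3 sums were higher in every tumor library than in any lymph node library, and highest in tumor replicate 2. Endothelial markers summed to 141, 346 and 493 CPM in tumor against 166, 208 and 182. Those sums overlapped. All 8 endothelial markers passed the count filter, but 2 of them were at 0 in every lymph node library and passed only through tumor. No count of calls is given for this list either. Plasma cell markers summed to 267, 362 and 677 CPM in tumor against 205, 189.6 and 209, mast cell and basophil markers to 9.6, 13.5 and 118 CPM in tumor against 2.96, 3.46 and 3.74, and CD8 T and NK cell markers to 115, 294 and 35.7 CPM in tumor against 41.9, 50.5 and 51.2. Several of these lists passed the count filter only in part: 7 of 10 dendritic cell, 5 of 10 neutrophil, 9 of 13 epithelial and 3 of 12 milk and fat cell markers. So did 6 of 11 red cell and platelet, 12 of 14 fibroblast and 8 of 11 B cell markers. A marker near 0 in either tissue could pass only through the other, so no count of calls is given for these lists. The part of such cells in the results below was not tested. Values are also given with the libraries scaled to the 10 pan-T genes (pan-T scaling), which does not remove RNA of other cells. The median log2 fold change of macrophage and monocyte markers was 8.12 with TMM and 8.94 with pan-T scaling. For fibroblast markers it was 10.9 and 11.9. Under that scaling the median log2 fold change over all genes was 0.92, and edgeR called 3448 genes higher (26.7%) and 158 lower (1.22%). In bulk libraries such as these, fewer cells of a type and less RNA per cell cannot be told apart.

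**Figure D1:**
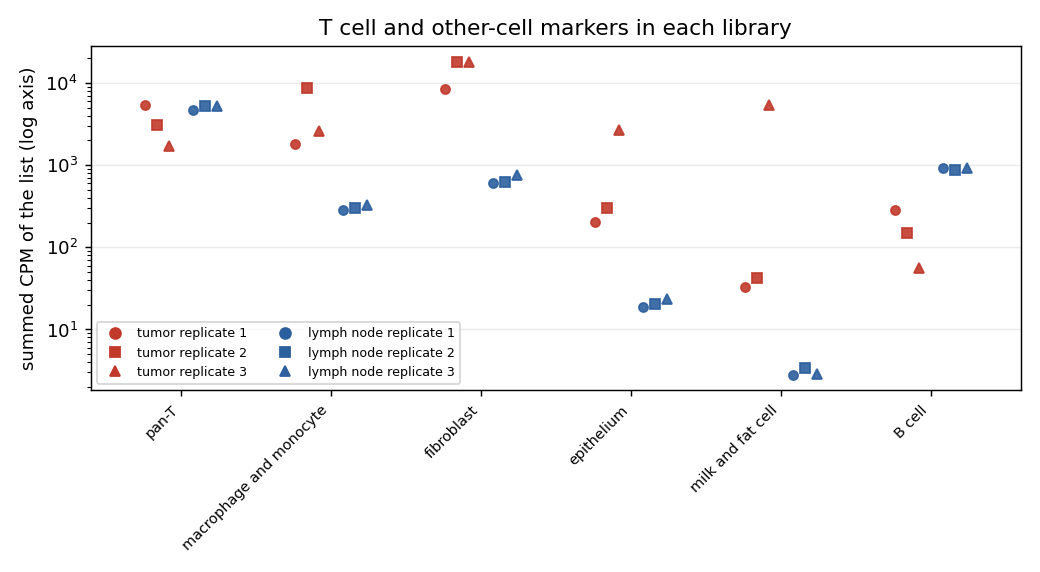
Summed CPM (log axis) of 6 marker lists in each of the 3 tumor (red) and 3 lymph node (blue) libraries; each symbol is 1 library. The pan-T sum falls from 5410 to 1693 CPM across the tumor libraries, macrophage markers peak in tumor replicate 2 and milk markers in tumor replicate 3.

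Of 14 Treg identity genes tested, 1 rose (Ctla4, described with the inhibitory receptors) and 1 fell. Foxp3 (ENSMUSG00000039521, chromosome X, 7573644 to 7595245 on GRCm38) was at 1675, 844 and 482 CPM in tumor and 1235, 1181 and 1238 CPM in lymph node. Its log2 fold change was -0.28 (SE 0.44, adjusted p = 0.621) and 0.27 with pan-T scaling (adjusted p = 0.537), so the sign depends on the scaling; without tumor replicate 1 it was called lower (-0.88, adjusted p = 0.0400) and without tumor replicate 3 it was 0.02. The tumor libraries spanned the lymph node values, with Foxp3 ordered like the pan-T level; the exons of Foxp3 overlap Ccdc22 and Ppp1r3f, which makes the count uncertain. Ikzf2, the gene of Helios, was at 846, 458 and 356 against 456, 449.7 and 491 CPM (0.25, adjusted p = 0.566), and without tumor replicate 1 the sign turned (-0.20). Il2ra, the gene of CD25 that the sort selected, was at 3044, 1081 and 1288 against 1128, 978 and 1078 CPM. Its difference of 0.77 was not called (adjusted p = 0.177) but was called with pan-T scaling (1.41, adjusted p = 0.0188). The identity gene that fell was Gpr83, a G protein-coupled receptor of Tregs, at 52.5, 30.3 and 12.6 against 188, 223 and 159.9 CPM (-2.58, SE 0.50, adjusted p = 0.00899). With pan-T scaling 7 identity genes were called higher, among them Ctla4, Tnfrsf4, the gene of OX40 (1.83), Il2rb (1.04), Ikzf4, the gene of Eos (1.30), and Lrrc32, which anchors latent TGF-beta (1.76), and Gpr83 stayed lower (-2.06).

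Inhibitory and costimulatory receptors differed gene by gene. Of 12 inhibitory receptors 3 rose and 2 fell (median 0.62), near the shares over all genes (26.5% and 18.3%). Ctla4, which takes the ligands of CD28 from antigen-presenting cells, was at 3492, 2510.1 and 912 CPM in tumor against 607, 552 and 629 CPM in lymph node (1.95, SE 0.48, adjusted p = 0.0191). Pdcd1, the gene of PD-1, was at 623, 212 and 352 against 45.5, 37.1 and 53.9 CPM (3.12, SE 0.43, adjusted p = 0.00327). The tissues did not overlap in either gene, and for Ctla4 the lowest tumor library was replicate 3, the one with the least T cell RNA. Cd200, a ligand that inhibits myeloid cells, was at 41.7, 60.9 and 99.6 against 30.9, 28.9 and 21.4 CPM (1.31, adjusted p = 0.0227), highest in the tumor library with the least T cell RNA. Btla (-1.76) and Cd160 (-2.51) fell, and neither was called with pan-T scaling (-0.99 and -1.77). Tigit (1.11, adjusted p = 0.0635), Havcr2, the gene of TIM-3 (0.99, adjusted p = 0.0867), and Lag3 (1.06, adjusted p = 0.195) were not called, but all of them were with pan-T scaling and also without tumor replicate 3 (1.43, 1.29 and 1.51). Leaving out 1 lymph node library in turn put the adjusted p of Ctla4, Cd200 and Cd160 at 0.0551 to 0.0837, above the threshold each time, and that of Ctla4 was 0.0520 without tumor replicate 2.

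Of 9 costimulatory receptors 1 rose. Tnfrsf9, the gene of 4-1BB (chromosome 4, 150914562 to 150946102), was at 2528, 823 and 1079 CPM in tumor against 121, 117 and 127 CPM in lymph node (3.60, SE 0.47, adjusted p = 0.00291). Every tumor library was above every lymph node library by several-fold. Tnfrsf4 was at 1795, 607 and 456 against 354, 358 and 430.0 CPM (1.32, adjusted p = 0.0859), and Icos at 1572, 1181 and 624 against 944, 793 and 911 CPM (0.35, adjusted p = 0.431). Tnfrsf18, the gene of GITR, stood at 0.77 (adjusted p = 0.217) and overlaps another gene, which makes it uncertain. Without tumor replicate 3, Tnfrsf4 (1.62), Icos (0.62) and Tnfrsf18 (1.05) were called. With pan-T scaling 5 of the 9 were called higher: Tnfrsf1b, Tnfrsf4, Tnfrsf8, Tnfrsf9 and Tnfrsf18.

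Suppressive and effector molecules rose together: 9 of 13 tested were called higher and none lower, with a median of 1.39. Areg, the growth factor amphiregulin of tissue-repair Tregs (chromosome 5, 91139599 to 91148432), was at 394, 219 and 144 CPM in tumor against 3.35, 1.01 and 1.99 CPM in lymph node (6.86, SE 0.62, adjusted p = 0.00138). Itgb8, the integrin chain that activates latent TGF-beta, was at 193, 107 and 104 against 29.5, 22 and 29.7 CPM (2.32, SE 0.29, adjusted p = 0.00269). In both genes every tumor library was above every lymph node library. Gzmb, the protease granzyme B, was at 549, 504 and 133 against 72.6, 81 and 94.3 CPM (2.26, adjusted p = 0.0159), and Il10 at 56.2, 58.8 and 11 against 7.62, 3.88 and 4.48 CPM (2.97, adjusted p = 0.0146). In both of these tumor replicate 3 lay nearest to the lymph node range. Cd80 (1.86), Pdcd1lg2, the gene of PD-L2 (1.80), Fgl2 (1.39) and Lgals1, the gene of galectin-1 (1.26), were also called. Dendritic cells and macrophages express several of these, and their markers rose in the same libraries; the part of these cells was not tested. Entpd1, the gene of CD39, was called at 0.99 (adjusted p = 0.0495) and was not called with the title date as a block, which compares tumor with lymph node within the 3 dates (adjusted p = 0.0788), while Nt5e, the gene of CD73, stood at 0.41 (adjusted p = 0.0994) and Tgfb1 at 0.47 (adjusted p = 0.262). Leaving out 1 lymph node library in turn gave 5 or 6 calls in this list, with the adjusted p of Gzmb at 0.0592 to 0.0679, of Il10 at 0.0425 to 0.0650, of Fgl2 at 0.0403 to 0.0568 and of Entpd1 at 0.118 to 0.155; without tumor replicate 1 or 2 Entpd1 was at 0.106 and 0.131.

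**Figure D2:**
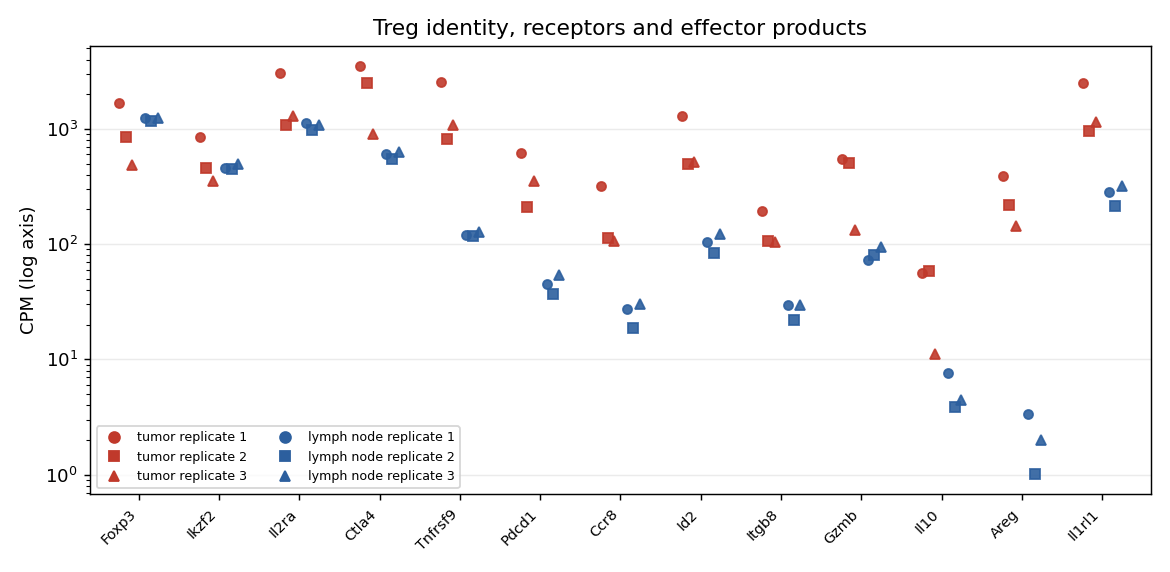
CPM (log axis) of 13 genes of Treg identity, receptors and effector products; each symbol is 1 library, tumor in red and lymph node in blue. Foxp3, Ikzf2 and Il2ra overlap between the tissues. All tumor libraries lie above all lymph node libraries for Ctla4, Tnfrsf9, Pdcd1, Ccr8, Id2, Itgb8, Gzmb, Il10, Areg and Il1rl1.

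Among transcription factors of effector and tissue Tregs, 8 of 15 rose and none fell (median 1.90). Bhlhe40, a repressor induced in activated T cells, was at 2440.5, 1127 and 1425 CPM in tumor against 36.2, 25 and 51 CPM in lymph node (5.47, SE 0.46, adjusted p = 0.00122). Id2, an inhibitor of E proteins, was at 1301, 497 and 518 against 104, 84.3 and 122 CPM (2.90, SE 0.45, adjusted p = 0.00451). Rbpj, the nuclear effector of Notch signalling, was at 383, 276 and 340.3 against 71.6, 62 and 81.7 CPM (2.22, SE 0.19, adjusted p = 0.00116), the narrowest spread over the tumor libraries among these 3. Nfil3 (3.44), Hif1a (1.90), Rora (2.34), Pparg (3.78) and Tbx21, the gene of T-bet (2.40, adjusted p = 0.0454), were the others. Several factors linked to effector Tregs were not called: Prdm1, the gene of Blimp-1, stood at 0.16, Batf at 0.10, Irf4 at -0.29, Maf at 0.20 and Gata3 at 1.20 (adjusted p = 0.711, 0.907, 0.655, 0.662 and 0.140). Batf was at 191, 46.9 and 38.1 against 91.9, 73.9 and 91.7 CPM and Irf4 at 355, 109 and 115 against 279.9, 205 and 220.3 CPM: tumor replicate 1 was above and replicates 2 and 3 below every lymph node library, and without replicate 1 both were called lower (-1.02 and -1.08). Gata3 was called without tumor replicate 2 (1.61). Tbx21 was not called with the title date as a block (adjusted p = 0.0964) or without any 1 lymph node library (0.121 to 0.140) or tumor replicate 1 or 2 (0.0798 and 0.125), and Pparg not without lymph node replicate 3 (0.0604).

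Receptors and products of tissue Tregs rose in 11 of 14 tested, with none lower and a median of 2.47. Il1rl1, the gene of the IL-33 receptor ST2, was at 2522, 955 and 1142 CPM in tumor against 282, 215 and 317 CPM in lymph node (2.51, SE 0.43, adjusted p = 0.00591). Dgat2, an enzyme of triglyceride synthesis, was at 242, 42.4 and 208 against 2.56, 1.6 and 4.4 CPM (5.84, SE 0.81, adjusted p = 0.00338). Klrg1 (1.71), Hpse, the gene of heparanase (2.44), and Cd83 (1.78) were also called, and Penk, the gene of proenkephalin (3.41), which overlaps another gene, is uncertain. Il9r, a cytokine receptor gene, ran the other way at 44.2, 10.8 and 20.5 against 74, 57.4 and 79.5 CPM (-1.48, adjusted p = 0.0507; called with the title date as a block, adjusted p = 0.0146, and without tumor replicate 1, -2.18). Without lymph node replicate 1, 2 or 3 there were 9, 8 or 7 higher calls in this list, and the adjusted p of Klrg1 and Penk was 0.0547 to 0.0886.

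Resting and recirculation genes fell: 14 of 18 were called lower in tumor and none higher, with a median of -1.63. Tcf7, which encodes TCF-1 (ENSMUSG00000000782, chromosome 11, 52252371 to 52283014), was at 16.6, 20.4 and 45.1 CPM in tumor against 646, 852 and 791 CPM in lymph node (-4.80, SE 0.46, adjusted p = 0.00152). Bcl2, which protects resting lymphocytes from apoptosis, was at 23.7, 29.2 and 27.8 against 225, 287 and 236 CPM (-3.21, SE 0.16, adjusted p = 0.000951). Tumor replicate 1 was the lowest of the tumor libraries for both. Its pan-T level was 106.7% of the lymph node mean with TMM factors, but below every lymph node library in CPM by library total. S1pr1, the receptor for exit from lymphoid organs, was at 96.4, 80.5 and 54.2 against 362, 453 and 369.9 CPM (-2.36, adjusted p = 0.00182). Lef1 was at 49.1, 38.3 and 36.6 against 167, 232 and 197 CPM (-2.27, adjusted p = 0.00116). Both were lower in every tumor library than in any lymph node library. Il6ra (-3.10), Bach2 (-2.49), Foxp1 (-1.67), Satb1 (-1.60), Foxo1 (-1.0), Klf3 (-0.95), Id3 (-0.94) and Klf2 (-0.81) were also among the 14, as was Dapl1, which was at 0, 0.178 and 0.402 CPM in tumor against 9.0, 12.1 and 11.1 CPM. With pan-T scaling 7 were still called lower, among them Tcf7 (-3.64), Bcl2 (-2.29), S1pr1 (-1.62), Lef1 (-1.44), Il6ra (-2.38) and Dapl1. Klf2 (0.15), Klf3 (0.11) and Id3 (0.05) changed sign under that scaling. Ccr7, the receptor that holds T cells in lymph nodes, did not follow the others, at 1202, 368 and 335 against 312, 394 and 333 CPM (0.88, adjusted p = 0.213), nor did Il7r (0.50, adjusted p = 0.217). With pan-T scaling both were called higher (1.40, adjusted p = 0.0162, and 1.26, adjusted p = 0.0404). Without lymph node replicate 1, 2 or 3 there were 11, 9 or 10 lower calls, and the genes that lost theirs were Foxo1 and Klf3 (adjusted p 0.0702 to 0.137), Id3 (0.0603 to 0.120), Klf2 (0.0281 to 0.0524) and Satb1 (0.0464 to 0.0616). Without tumor replicate 2 Foxo1 (0.124), Klf3 (0.0821) and Satb1 (0.0544) were not called, nor was Id3 without tumor replicate 3 (0.0652).

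**Figure D3:**
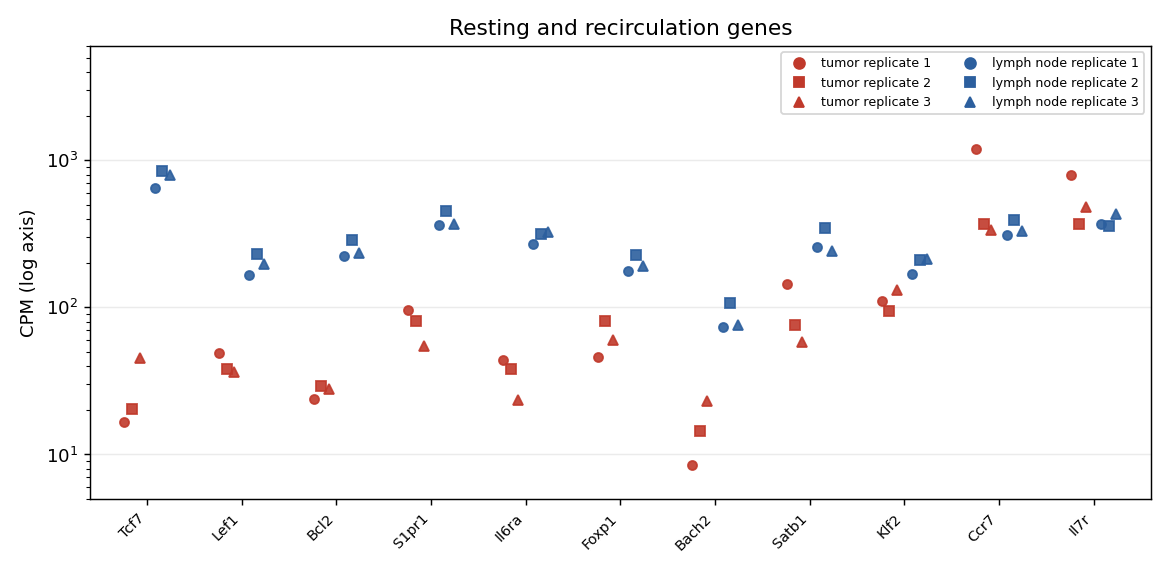
CPM (log axis) of 11 resting and recirculation genes; each symbol is 1 library, tumor in red and lymph node in blue. Tcf7, Lef1, Bcl2, S1pr1, Il6ra, Foxp1, Bach2, Satb1 and Klf2 lie lower in all tumor libraries with this TMM scaling (the fold of Klf2 turned sign with pan-T scaling), while Ccr7 and Il7r overlap.

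Of 14 tissue chemokine receptors 4 rose and 2 fell, near the shares over all genes (26.5% and 18.3%). Ccr8, a receptor of Tregs in tumors and skin (chromosome 9, 120092114 to 120094906), was at 318, 114 and 106 CPM in tumor against 27.6, 18.9 and 30.0 CPM in lymph node (2.81, SE 0.50, adjusted p = 0.00667). Ccr1 was at 49.4, 119.8 and 45.8 against 4.73, 2.45 and 5.4 CPM and Cx3cr1 at 43.8, 176 and 61.8 against 1.12, 1.1 and 0.415 CPM. Ccr8 was highest in tumor replicate 1, whereas Ccr1 and Cx3cr1, which monocytes and macrophages also express, were highest in replicate 2, the library with the most macrophage RNA; the part of such cells in these values was not tested. Ccr10, a receptor for the skin and mucosal chemokines CCL27 and CCL28, was at 1.94, 0.799 and 0.10 against 29, 29 and 25.7 CPM (-4.87, SE 0.75, adjusted p = 0.00451; -4.50 with pan-T scaling). Ccr6 (-1.31, adjusted p = 0.0413) was lower as well and was not called with pan-T scaling (-0.51). Its adjusted p was 0.0739 to 0.125 without 1 lymph node library and 0.0601 without tumor replicate 3. Ccr2 (1.05), Ccr4 (-0.36), Cxcr3 (0.32) and Cxcr6 (0.57) were not called. Without tumor replicate 3 there were 7 higher calls, Ccr2 (1.42) and Cxcr3 (0.77) among them, beside 3465 of 13079 genes over all. Without tumor replicate 1 there were 5 lower calls, with Ccr4 among them (-0.89), beside 3308 of 13539 genes.

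Of 14 integrin chains 7 rose and none fell (median 0.86). Itgav, the alpha-v chain that pairs with beta-8 among others, was at 907, 488 and 829 CPM in tumor against 60.5, 53.2 and 60.0 CPM in lymph node (3.68, SE 0.28, adjusted p = 0.00108). Itgb3 was at 242, 204 and 199 against 52.1, 53.1 and 60.2 CPM (1.96, adjusted p = 0.000993). Itgav and Itgb3 were high in all tumor libraries, replicate 1 included. Itga5 (83.5, 182 and 191 CPM in tumor) and Itgb5 (56.1, 246 and 210.0) were each under 2 CPM in every lymph node library and lowest in tumor replicate 1, as was the fibroblast sum. The part of fibroblasts in these values was not tested. The leukocyte chains Itgal (-0.85), Itgae, the gene of CD103 (-0.26), Itgb7 (-0.34) and Itgb2 (-0.19) were not called, although without tumor replicate 1 the first 3 of them were called lower (-1.31, -0.66 and -0.93). Of 9 follicular and positioning genes, Cxcr4, the receptor for CXCL12 (1384, 774 and 1369 against 114, 72.8 and 84.3 CPM, 3.70), Bcl6 (1.14) and Il1r2, a decoy receptor for IL-1 (2.04, adjusted p = 0.0432), rose, and Cxcr5, the receptor for the follicle chemokine CXCL13 (-2.61), and Lta (-2.36) fell. Il1r2 (adjusted p 0.109 to 0.140) and Lta (0.0590 to 0.0671) lost their calls without any 1 lymph node library, and Lta also without tumor replicate 2 (0.0590).

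Immediate-early genes and NF-kB genes were higher in tumor. Of 23 dissociation stress genes, a list of transcripts known to respond to enzymatic digestion, 17 rose and none fell (median 1.95). Fosb, a subunit of the AP-1 transcription factor, was at 607, 879.7 and 2468 CPM in tumor against 3.09, 2.53 and 2.41 CPM in lymph node (8.93, SE 0.75, adjusted p = 0.00121). Fos was at 554, 820.1 and 1469.7 against 24.7, 6.49 and 4.07 CPM, and Junb at 4545, 2156 and 2095 against 190.0, 163 and 201 CPM. Fos and Fosb were highest in tumor replicate 3 and Junb in replicate 1, so these genes did not share 1 order over the libraries. Among 16 genes of the early T cell receptor response, 7 were called higher and none lower (median 0.99). Nr4a1, the orphan receptor Nur77, was at 2652, 1344 and 3165 against 93.2, 77.8 and 73.9 CPM (4.87, SE 0.39, adjusted p = 0.00113), and Nr4a3 rose by 5.19 and Egr1 by 2.48 on the log2 scale. Egr2 (-0.83), Egr3 (-0.64), Myc (-0.26), Cd69 (0.48) and Nfatc1 (-0.32), which are also induced through the receptor, were not called. Several of these depended on 1 library: without tumor replicate 1 Egr2 (-0.49) and Myc (-0.64) were called lower, and without tumor replicate 3 Egr3 was called lower (-1.22) and Cd69 higher (0.70).

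Of 16 NF-kB genes 12 rose and none fell (median 1.90). Tnfaip3, the gene of the feedback inhibitor A20, was at 4063, 2505 and 1535 CPM in tumor against 155, 143 and 147 CPM in lymph node (4.19, SE 0.40, adjusted p = 0.00157). Nfkbia, the gene of IkappaB-alpha (chromosome 12, 55489410 to 55492647), was at 2759, 1138 and 1014 against 221, 219 and 268 CPM (2.79, adjusted p = 0.00474). Rel, a subunit used by Tregs, was at 340.5, 122 and 233 against 31.1, 34.6 and 32.8 CPM (2.82, adjusted p = 0.00310). Each was several-fold higher in all tumor libraries and highest in replicate 1. Nfkbiz (3.31), Nfkbie (2.31), Icam1 (2.24), Birc3 (2.16), Nfkb2 (1.65), Traf1 (1.58), Bcl3 (1.23) and Relb (0.93) were also called, as was Bcl2a1b (2.31), which has near-identical copies and is uncertain, whereas Nfkb1 (0.63), Rela (0.11), Traf2 (-0.14) and Cflar (-0.01) were not. Leaving out any 1 lymph node library gave 6 higher calls in this list, with the adjusted p of Icam1, Birc3, Nfkb2, Traf1, Bcl3 and Relb at 0.0510 to 0.130, and leaving out any 1 tumor library gave 12. Relb was not called with the title date as a block (adjusted p = 0.0527).

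The promoters of Fosl2, the gene with the smallest p in the comparison, and of Nfkbia are shown because both genes rose several-fold and both windows hold a kappaB consensus match. Each is the 250 bases before the outermost RefSeq start site, from RefSeq on GRCm38.p6, read 5′ to 3′ on the gene's strand; capitals mark matches to the NF-kappaB consensus kappaB, the AP-1 motif TGANTCA or the interferon-stimulated response element (GAAA, any 2 bases, GAAA), on either strand.
Fosl2, chr5:32136222-32136471, plus strand: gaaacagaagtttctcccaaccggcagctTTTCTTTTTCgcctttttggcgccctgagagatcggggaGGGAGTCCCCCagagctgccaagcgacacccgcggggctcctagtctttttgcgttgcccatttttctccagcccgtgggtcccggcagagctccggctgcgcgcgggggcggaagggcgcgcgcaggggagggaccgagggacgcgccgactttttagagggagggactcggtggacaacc
Nfkbia, chr12:55492648-55492897, minus strand: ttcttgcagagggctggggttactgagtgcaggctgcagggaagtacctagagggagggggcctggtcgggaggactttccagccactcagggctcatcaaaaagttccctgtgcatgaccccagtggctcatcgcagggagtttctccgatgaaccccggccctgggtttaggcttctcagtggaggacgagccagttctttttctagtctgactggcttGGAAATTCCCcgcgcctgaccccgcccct
In Fosl2 the first capitals match the interferon-stimulated response element on the other strand and the second kappaB, at 2 positions within 11 bases; in Nfkbia a single kappaB match ends 19 bases before the start site. The Fosl2 window lies before the RefSeq start site but inside the gene record used for the coordinates of Fosl2, which starts further upstream. Of 27025 such windows over all genes 7.03% held a kappaB match, 6.85% an AP-1 match and 3.05% a match to the interferon-stimulated response element. Of the 16 NF-kB genes 13 had a window and 5 of these (38.5%) a kappaB match, and of 23 dissociation stress genes 19 had a window and none an AP-1 match. A match is a description of these letters and shows no binding.

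Type I interferon genes rose in 18 of 30, with none lower and a median of 1.30. Isg15, a ubiquitin-like modifier (ENSMUSG00000035692, chromosome 4, 156199424 to 156200818), was at 88.9, 69.3 and 51.8 CPM in tumor against 12.7, 6.83 and 9.22 CPM in lymph node (2.87, SE 0.31, adjusted p = 0.00186). Rsad2, the gene of viperin, was at 25.5, 38.2 and 44.3 against 0.723, 0.0843 and 0.498 CPM (6.29, SE 0.59, adjusted p = 0.00152). Bst2, the gene of tetherin, was at 101, 112 and 98.8 against 30.7, 29.4 and 27.7 CPM (1.83, SE 0.11, adjusted p = 0.000993). All tumor libraries were above all lymph node libraries in these 3 genes, but the order over tumor libraries differed: Isg15 was highest in replicate 1 and Rsad2 in replicate 3. Irf7 (1.54), Usp18 (1.83), Mx1 (3.47), Rtp4 (1.76) and Ifih1, the gene of the RNA sensor MDA5 (1.04), were among the others. Ifit3 (3.53), Ifit1 (2.76), Oas2 (3.94) and Oasl2 (4.79) were called too and belong to families of close copies, so their counts are uncertain. The signal mediators Stat2 and Irf9 were not called, at 0.34 and -0.54 (adjusted p = 0.285 and 0.0941). Without tumor replicate 3 Stat2 was called higher (0.55), and Irf9 was called lower without tumor replicate 1 or 3 (-0.73 and -0.35). Of 20 interferon gamma genes only Cd274, the gene of PD-L1, was called, at 438, 257 and 133 against 82.1, 81.8 and 84.5 CPM (1.73, adjusted p = 0.0175), and the list's median was 0.01. Its adjusted p was 0.0688 to 0.0725 without 1 lymph node library; 4 genes of the list were called higher with pan-T scaling and 6 without tumor replicate 3. Macrophages and epithelium express interferon genes as well; their markers rose in the same libraries and their part in these values was not tested.

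The promoters of Isg15 and Rsad2 are shown because both genes were called, lie outside the families of close copies and hold the response element, as Bst2 does too; the windows and capitals are as above.
Isg15, chr4:156200819-156201068, minus strand: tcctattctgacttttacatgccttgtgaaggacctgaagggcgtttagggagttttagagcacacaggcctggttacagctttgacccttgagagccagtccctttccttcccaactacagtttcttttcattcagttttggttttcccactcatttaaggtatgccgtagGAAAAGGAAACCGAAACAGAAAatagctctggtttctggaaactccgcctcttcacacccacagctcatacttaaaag
Rsad2, chr12:26456453-26456702, minus strand: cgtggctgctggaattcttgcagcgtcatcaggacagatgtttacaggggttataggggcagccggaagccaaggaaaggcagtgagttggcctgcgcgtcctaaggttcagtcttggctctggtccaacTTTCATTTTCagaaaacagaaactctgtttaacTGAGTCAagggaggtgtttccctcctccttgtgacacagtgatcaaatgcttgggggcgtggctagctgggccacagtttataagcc
In Isg15 3 overlapping matches to the response element form a stretch of 22 bases that ends 56 bases before the start site. In Rsad2 1 such match, on the other strand, lies 110 bases before the start site and an AP-1 match follows at 80 bases. Among the 30 type I interferon genes 22 had a window, and 9 of these (40.9%) held the response element, against 3.05% of all 27025 windows; of 18 resting genes 15 had a window and none held it. No marked stretch overlapped one of another motif.

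Glycolysis and hypoxia genes rose in 17 of 25, with none lower and a median of 1.43. Tpi1, triosephosphate isomerase, was at 739.8, 553 and 422 CPM in tumor against 104, 74.1 and 80.5 CPM in lymph node (2.73, SE 0.27, adjusted p = 0.00161). Hk2, the inducible hexokinase, was at 141, 67.4 and 98.1 against 8.28, 6.07 and 5.23 CPM (3.96, SE 0.34, adjusted p = 0.00132). Slc2a1, the gene of the glucose transporter GLUT1, was at 348, 186 and 223 against 47.6, 55.7 and 52.4 CPM (2.28, adjusted p = 0.00206). These were several-fold higher in all tumor libraries, replicate 1 included. Slc16a3, a lactate exporter (4.33), Bnip3, a mitophagy receptor induced in hypoxia (2.52), Egln3 (2.46), Pgam1 (1.73), Pgk1 (1.59), Aldoa (1.61), Pkm (1.14) and Ldha (0.86) were also called. Vegfa, at 88.6, 186 and 236 CPM in tumor, was under 1 CPM in every lymph node library. In tumor it was lowest in replicate 1 and highest in replicate 3, as were the fibroblast and epithelial sums. The part of such cells in Vegfa was not tested. Gapdh has many processed copies and is uncertain. Without lymph node replicate 1, 2 or 3 there were 14, 11 or 12 calls, with the adjusted p of Ldha at 0.0752 to 0.107, of Pkm at 0.0392 to 0.0624 and of Egln3 at 0.0467 to 0.0551.

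Of 19 cholesterol and fatty acid genes 12 rose and none fell (median 1.21). Hmgcs1, an early enzyme of the mevalonate pathway, was at 74, 81.6 and 80.9 CPM in tumor against 31.9, 33.6 and 32.5 CPM in lymph node (1.27, SE 0.10, adjusted p = 0.00113). The tumor libraries were close to each other for Hmgcs1 although their pan-T levels differed. Insig1 (2.23), Cyp51 (1.92), Idi1 (2.01) and Sqle, the gene of squalene epoxidase (2.26), were called, while Fasn (0.29) and Srebf2 (0.33) were not. Scd1 was at 20.3, 71.2 and 310.5 CPM in tumor, highest in replicate 3, which also held the most milk and fat cell RNA. The part of such cells in this value was not tested. Of 19 oxidative phosphorylation genes 4 rose (median 0.14): Cox7a2 (0.59), Cox5a (0.39, overlapping another gene), Uqcrfs1 (0.38) and Cox6c (0.35). Without any 1 lymph node library, and with pan-T scaling, edgeR called none of the 19; Cox7a2 alone kept its call with the title date as a block (adjusted p = 0.0364).

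Few cell cycle genes were called, and the number changed with the libraries included. Of 30 proliferation genes 3 rose (median 1.00): Cdk1 at 33.6, 45.9 and 63.1 CPM in tumor against 20.6, 3.96 and 4.98 CPM in lymph node (2.26, adjusted p = 0.0365), Aurka (1.72) and Ube2c (2.15, uncertain because it overlaps another gene). Top2a, a topoisomerase of dividing cells, was at 184, 166 and 174 against 159, 26.2 and 35.4 CPM (adjusted p = 0.180), and Mki67, the gene of Ki-67, at 202, 127 and 141 against 201, 62.3 and 89.3 CPM (adjusted p = 0.481). Lymph node replicate 1 was close to the tumor libraries and the other lymph node libraries were lower; with the title date as a block 6 were called, Top2a among them (adjusted p = 0.0452). Without that library 22 of the 30 were called higher in tumor, beside 2520 of 13589 genes over all. Without tumor replicate 1 there were 2 calls, and without lymph node replicate 2 or 3, or tumor replicate 2 or 3, edgeR called none, with Cdk1 at an adjusted p of 0.0940, 0.110, 0.0772 and 0.0752. Of 14 tested cell cycle inhibitors and p53 targets 6 rose, among them Cdkn1a, the gene of p21 (373, 187 and 215 against 8.54, 4.05 and 4.65 CPM, 5.48), Cdkn2a (49, 92.2 and 114 against 1.84, 0.843 and 1.58 CPM, 5.88) and Gadd45b (4.04). Ccng1 (-0.92) and Zmat3 (-0.52), both targets of p53, fell, and neither was called with pan-T scaling, where Zmat3 changed sign (0.32). Their adjusted p was 0.0651 to 0.121 without 1 lymph node library. Trp53 was at 161, 85.2 and 56.6 against 203, 197 and 201 CPM (-0.99, adjusted p = 0.0710; called with the title date as a block, adjusted p = 0.0376, and without tumor replicate 1, -1.50).

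Among 15 BCL2 family and death receptor genes 3 rose and 3 fell, near the shares over all genes (26.5% and 18.3%). Pmaip1, the gene of the pro-apoptotic NOXA, rose from 28.7, 23 and 20.1 CPM in lymph node to 194, 146 and 131 CPM in tumor (2.71, SE 0.22, adjusted p = 0.00113), and Apaf1 (0.92) and Bcl2a1b, named above, were also higher. Bcl2, described above, Bbc3, the gene of PUMA (-1.07), and Bid (-0.78) fell; with pan-T scaling Bbc3 was not called (-0.30) and Bid, which overlaps another gene, changed sign (0.06). Bbc3 was not called without lymph node replicate 2 or 3 (adjusted p 0.0626 and 0.0645). Without tumor replicate 2 there were 5 higher calls in this list, beside 3182 of 13081 genes over all. Without tumor replicate 1 there were 5 lower calls, beside 3308 of 13539 genes. Of 15 IL-2 and STAT5 genes 2 rose, Pim1 (1.72, overlapping another gene) and Socs3 (0.46), and 2 fell, Bcl2 and Lta; Stat5a (0.89), Jak3 (0.32) and Cish (-0.09) were not called, and both higher calls were lost without any 1 lymph node library (adjusted p 0.0906 to 0.137), that of Socs3 also with the title date as a block (0.104) and without tumor replicate 2 (0.0754). Without tumor replicate 1 there were 8 lower calls in this list, beside 3308 of 13539 genes over all. Of 9 conventional effector cytokine genes tested, Csf2 and Il5 rose and Cd40lg, the gene of CD40 ligand (18.7, 12.1 and 7.03 against 50.2, 53.4 and 65.4 CPM, -2.16), and Il21 fell. Csf2 was at 8.68, 8.61 and 4.92 CPM and Il5 at 1.53, 2.84 and 1.0 CPM in tumor, and both overlap other genes. The call of Il21 was lost without any 1 lymph node library (adjusted p 0.0787 to 0.109) and without tumor replicate 2 (0.102), and that of Il5 without lymph node replicate 1 or 2 (0.0972 and 0.127) or tumor replicate 2 (0.0874). Ifng was at 5.92, 16.8 and 0.603 against 2.83, 1.94 and 1.74 CPM (adjusted p = 0.182) and Il22 at 0 in all 6 libraries.

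The genes with the smallest p, in or outside the lists, were named by rule (at least 2-fold, at least 5 CPM in the higher group, no overlap between the tissues, 12 in each direction). Fosl2, an AP-1 subunit (ENSMUSG00000029135, chromosome 5, 32135801 to 32157842), was at 1915, 1526 and 1673 CPM in tumor against 14.3, 16 and 18.5 CPM in lymph node (6.71, SE 0.23, adjusted p = 0.000471). Rgs2, a regulator of G protein signalling, was at 282, 289 and 344 against 13.8, 14.8 and 12.1 CPM (4.49, SE 0.16). Procr, the endothelial protein C receptor, was at 27.3, 26.3 and 28.7 against 1.45, 1.35 and 1.99 CPM (4.10, SE 0.24). These 3 were nearly equal in the 3 tumor libraries with TMM scaling, and a choice by smallest p favors genes with little spread. With pan-T scaling Fosl2 was at 1794, 2520 and 5007 CPM in tumor and Procr at 25.5, 43.4 and 86.0 CPM. Maff, a small MAF protein (6.16), Tgif1, a TGF-beta pathway repressor (3.52), Gprc5a (7.08) and the tubulin gene Tubb6 (7.79) were also in the higher 12. So were Kctd12 (2.94) and Glis2 (3.35), which overlap other genes. Rgs2, Maff and Tgif1 were lower in tumor than in lung, with values given beside the lung results. Il1b, the cytokine gene of myeloid cells, was at 76.7, 173 and 131 CPM in tumor, and the matrix genes Mmp3 and Col5a3 at 219, 257 and 116 and 106, 279 and 209 CPM; all 3 were under 0.2 CPM in every lymph node library, and macrophage or fibroblast markers were high in the same libraries.

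Beside Bcl2, the lower 12 were led by Slc16a5, a monocarboxylate transporter, at 0.102, 0.0888 and 0.10 CPM in tumor against 14.8, 20.5 and 18.6 CPM in lymph node (adjusted p = 0.000797; no fold is given, since the tumor libraries hold 1 count each). Dtx1, the gene of Deltex-1, a regulator of Notch signalling, was at 5.21, 2.4 and 3.42 against 105, 104 and 128 CPM (-4.94, SE 0.31). Aff3 was at 2.76, 5.33 and 4.22 against 72.9, 84.9 and 70.5 CPM (-4.21, SE 0.27). Nsg2 was at 0.204, 0.444 and 0.603 against 33.4, 43.4 and 39.8 CPM (-6.50, SE 0.35). The tumor libraries held 2, 5 and 6 counts of Nsg2, so its fold is imprecise. Dtx1, Aff3 and Nsg2 each stood at a small share of their lymph node level in every tumor library, replicate 1 included. Ehd3 (-2.59), Cpne4 (-4.14), Cntnap1 (-3.40), Tnfrsf26 (-3.19) and Ccdc64 (-3.12) were called with either scaling, whereas Xpc, a DNA repair gene (-1.70), and Arpc5l (-1.31) were not called with pan-T scaling (-0.86 and -0.43).

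**Figure D4:**
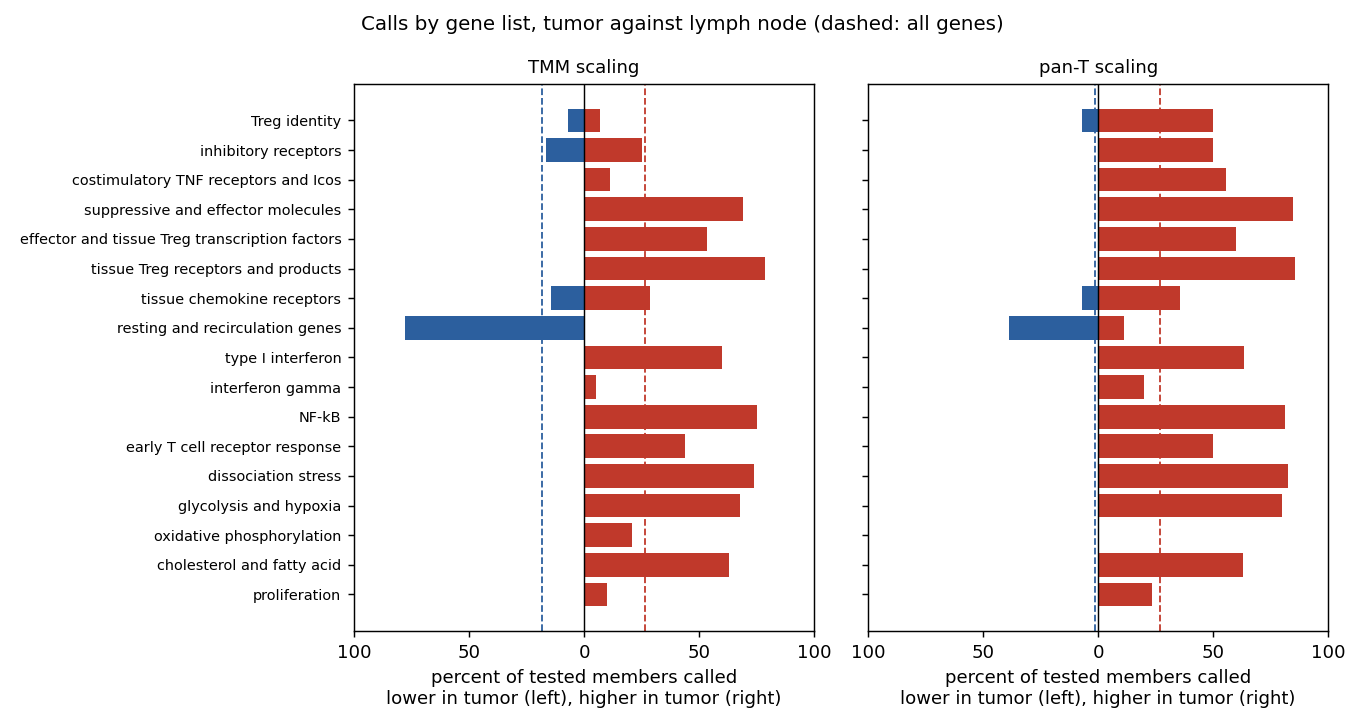
Percent of the tested members of 17 gene lists that were called higher (red, to the right) or lower (blue, to the left) in tumor, with TMM scaling on the left panel and pan-T scaling on the right; dashed lines give the percent over all 12903 genes. The resting list is the one with most calls to the lower side, 14 of 18 with TMM and 7 of 18 with pan-T scaling, and oxidative phosphorylation has none with pan-T scaling.

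The lung libraries of the KEP mice show where the tumor differed from another digested tissue. These values come from a fit of all 15 KEP libraries; tumor against lung and lung against lymph node share libraries with the comparison above, so they are set side by side only. Over all 13459 genes of that fit 30.0% were called higher and 23.1% lower in tumor than in lung, and 19.4% higher and 17.3% lower in lung than in lymph node. The median log2 fold change of all genes was 0.06 for tumor against lung and 0.01 for lung against lymph node.

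Dissociation stress genes were high in both digested tissues. In lung against lymph node 20 of 23 were called higher and none lower (median 2.12), and in tumor against lung 5 were higher and 6 lower (median 0.04), the lower ones being Ier2, Btg1, Btg2, Dnaja1, Ppp1r15a and Socs3. Fos stood at 937 ± 463 CPM in tumor, 632 ± 94.5 in lung and 11.6 ± 11.2 in lymph node (mean ± SD, n = 3). Nr4a1 stood at 2359.9 ± 925, 1766 ± 119.8 and 80.8 ± 10.2 CPM, and Tnfaip3 at 2673 ± 1269, 3989 ± 149 and 147 ± 6.29 CPM. None of these 3 genes was called between tumor and lung in that fit (log2 fold change 0.57, 0.42 and -0.58, adjusted p = 0.422, 0.147 and 0.0729). Fosl2 stood at -0.03 between tumor and lung (adjusted p = 0.888) and 6.74 between lung and lymph node. Of the other genes in the higher 12, Rgs2 (-0.58), Tgif1 (-0.72) and Maff (-0.64) were called lower in tumor than in lung. Maff was not called with only the 6 tumor and lung libraries (adjusted p = 0.0802). Kctd12 was not called (-0.10, adjusted p = 0.536). Gprc5a (1.44), Tubb6 (4.32), Procr (3.31), Glis2 (2.09), Il1b, Mmp3 and Col5a3 were called higher in tumor than in lung. NF-kB genes were called higher in 11 of 16 in lung against lymph node, and in tumor against lung in 6, with 1 lower, Nfkbiz (-0.78) (with only the 6 tumor and lung libraries 1 was called, Nfkbie).

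Several genes of tissue Tregs were also high in lung. Areg stood at 249.6 ± 127 CPM in tumor, 214 ± 45 in lung and 2.1 ± 1.16 in lymph node, and its difference between tumor and lung was 0.22 (adjusted p = 0.616). Ctla4 stood at 2282 ± 1293, 2669 ± 245 and 589 ± 39.5 CPM, with -0.23 between tumor and lung (adjusted p = 0.594). Il1rl1 stood at 0.25, Il10 at -0.01, Cxcr4 at -0.34, Rora at -0.53 and Pparg at -0.21 between tumor and lung (adjusted p = 0.532, 0.990, 0.325, 0.110 and 0.860). All 7 were called between lung and lymph node as well. A missing call between tumor and lung does not show that their levels are equal.

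Other genes were higher in tumor than in lung as well. Pdcd1 stood at 391 ± 208 CPM in tumor, 78.9 ± 19.5 in lung and 45 ± 8.3 in lymph node (tumor against lung 2.31, adjusted p = 0.000127). Ccr8 stood at 177 ± 119, 25.8 ± 6.01 and 25.2 ± 5.78 CPM (2.78, adjusted p = 0.000176). Tnfrsf9 (2.39), Id2 (2.0), Itgb8 (1.88), Rbpj (1.35), Bhlhe40 (2.17), Dgat2 (3.58), Itgav (2.67) and Gzmb (1.56) were called in the same direction, Gzmb not with only the 6 tumor and lung libraries. Resting genes were lower in tumor than in lung in 13 of 18, with 2 higher, and lower in lung than in lymph node in 7, with 2 higher. Tcf7 stood at 27.1 ± 15.2 CPM in tumor, 516 ± 136 in lung and 754 ± 104 in lymph node, with -4.25 between tumor and lung (adjusted p = 1.62e-05) and -0.55 between lung and lymph node (adjusted p = 0.309). S1pr1 (-2.59) and Il6ra (-2.54) were called lower in tumor than in lung too.

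Interferon, glycolysis and cholesterol genes were called higher in tumor than in lung too. In tumor against lung 21 of 30 type I interferon genes were called higher and none lower (median 1.42), whereas in lung against lymph node 3 were higher and 6 lower (median -0.21). Isg15 stood at 69.3 ± 18.6 CPM in tumor, 17 ± 2.23 in lung and 9.47 ± 2.92 in lymph node, and Ifit1 at 36.5 ± 7.82, 2.55 ± 1.24 and 5.35 ± 3.25 CPM. In tumor against lung 16 of 25 glycolysis genes were higher and none lower (median 0.84), and in lung against lymph node 9 were higher and 3 lower (median 0.23). Tpi1 stood at 566 ± 159, 79 ± 19.7 and 85.2 ± 15.7 CPM. Cholesterol genes were higher in 13 of 19 in tumor against lung, with none lower, and in lung against lymph node 8 were higher and 2 lower. With only the 6 tumor and lung libraries, a fit added after the data were seen in which 19.8% of genes were higher, the higher counts were 19 of 30, 13 of 25 and 9 of 19. Isg15, Ifit1 and Tpi1 kept their calls there. Macrophage markers were also higher in tumor than in lung (median log2 fold change 7.25). Most fibroblast markers tested were higher too, though that list passed the count filter only in part. The part of either cell type in these differences was not tested.

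Spleen and blood of the same genotype, for which no enzymatic digestion is stated, are given for a few of these genes. Over all genes of the 15-library fit 61.9% were called, in either direction, between tumor and spleen and 62.5% between tumor and blood. Fosl2 stood at 25 ± 0.691 CPM in spleen and 27 ± 3.67 CPM in blood (mean ± SD, n = 3), against 1686 ± 197 CPM in tumor. Ccr8 stood at 11.7 ± 4.41 and 5.73 ± 1.68 CPM, and Pdcd1 at 46.8 ± 8.2 and 30.9 ± 6.94 CPM. Both were called higher in tumor than in either (3.92 and 4.94 for Ccr8, 3.06 and 3.67 for Pdcd1). Tcf7 stood at 569.6 ± 97.6 and 283 ± 161 CPM, above tumor (-4.40 and -3.39, both called). Il1rl1 differed from these: at 1279 ± 261 CPM in blood it was not called between tumor and blood (0.25, adjusted p = 0.498), while it was between tumor and spleen (1.77, adjusted p = 0.000439). Foxp3 was called in neither (-0.38 against spleen and -0.75 against blood, adjusted p = 0.305 and 0.0505).

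**Figure D5:**
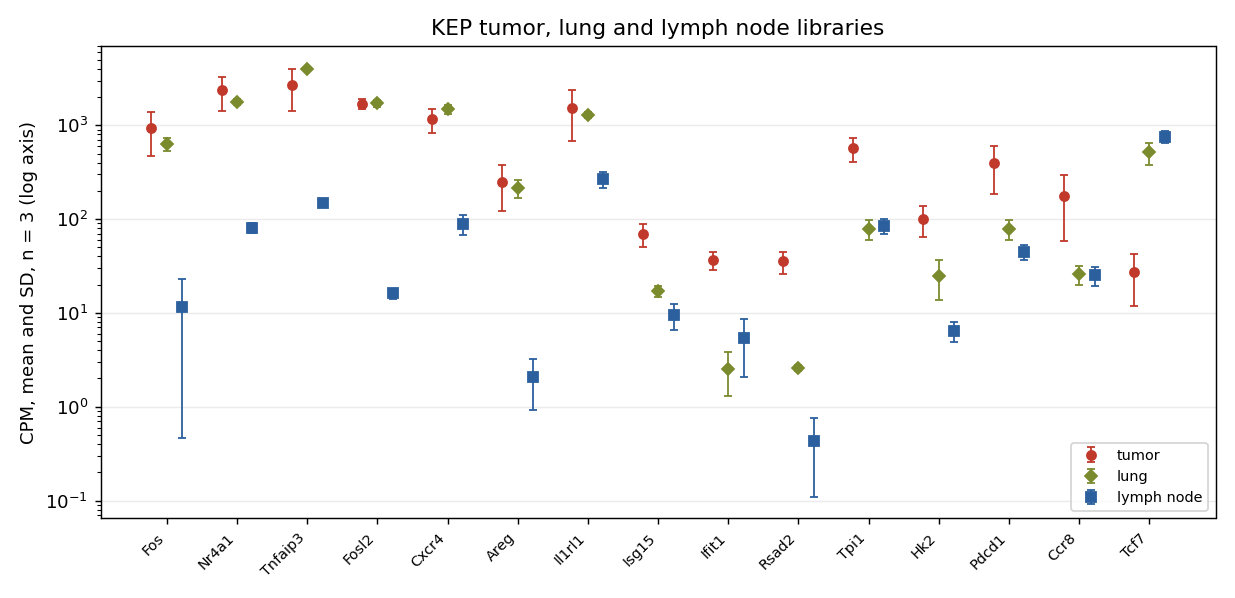
CPM (log axis; mean and SD, n = 3) of 15 genes in KEP tumor (red), lung (green) and lymph node (blue). Tumor and lung lie together for Fos, Nr4a1, Fosl2, Cxcr4, Areg and Il1rl1; for Isg15, Ifit1, Tpi1, Pdcd1 and Ccr8 lung lies near lymph node, Hk2 and Rsad2 in lung lie between the others, and Tcf7 is at 27.1 CPM in tumor and 516 in lung.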

How the data were processed

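RNA was sequenced from sorted cells as stranded poly(A) libraries, per the labels' protocols. The authors deposited whole-number counts per gene for each library; the submitters' processing notes name TopHat2 2.1.0, HTSeq and GRCm38 without roles, and the strand setting and annotation release are not given in the sources used here. Of 24594 gene IDs 24270 matched GENCODE M21, used for names, positions and overlaps; promoter sequences came from RefSeq. Genes sharing at least 10% of exon bases with another gene, or with close copies, are called uncertain.

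Counts of the 6 libraries were filtered with filterByExpr (minimum count 10), scaled by TMM and tested with edgeR 4.0.16 (R 4.3.3) by glmQLFTest, robust, with no block. The 15-library fit served lung. The 6-library fit was tested on data simulated from lymph node means, with the same spread for tumor and lymph node libraries. Of 50 genes raised 4-fold 39 were recovered, and of 50 raised 2-fold 11, among 11490 genes. Of 50 genes lowered to 0.25 of their level 32 were recovered, and of 50 lowered to 0.5 it was 14. The real tumor libraries differed more among themselves and far more genes were called, so these shares need not hold for them. The title dates pair 1 tumor with 1 lymph node library; same-date deviations correlated at -0.007, 0.052 and 0.009, and the date as a block was an alternative. Other alternatives were RLE, upper-quartile and pan-T scaling, other filters, DESeq2 1.42.0, limma 3.58.1, other sets of libraries and leaving out each library. Members and the 36 gene lists were chosen with earlier results of these data known. Named genes were called, at least 2-fold, at least 5 CPM, without overlap, the same way in all 3 date pairs, and the 12 with the smallest p each way, leaving out other-cell markers and unnamed genes; list members are given in addition. Total counts of about this size limit the precision of genes under a few CPM. Values of some list members are not reported here.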

Additional observations from a re-analysis of the deposited data

How the results depend on the processing

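Of 3414 higher and 2355 lower genes, the replicate block (title date) gave 3124 and 1857, RLE factors 3520 and 2235, DESeq2 3896 and 2726, limma-voom 2891 and 2408, and a minimum count of 50 gave 2587 and 2073. Counts moved by over 1.5 times with all 31 libraries (5315 higher and 3875 lower), with the 15 KEP libraries (3619 lower), with a minimum change of 2-fold (2002 and 373) and with pan-T scaling (158 lower). Leaving out 1 library gave 2291 to 4344 higher and 1007 to 3308 lower genes, the fewest without a lymph node library; the cause was not tested. The pan-T level in tumor was 66.9% of lymph node, and 57.3% in CPM by library total (exact permutation p = 0.4 and 0.1, the smallest possible). Tumor against lung with only those 6 libraries gave 2542 in place of 4036 higher and 1668 in place of 3106 lower genes. With pan-T scaling the sign turned for Klf2 (0.15), Klf3 (0.11), Id3 (0.047), Bid (0.060), Zmat3 (0.32) and Foxp3 (0.27), without tumor replicate 1 for Ikzf2 (-0.20; range over libraries left out -0.20 to 0.46), and without tumor replicate 3 for Foxp3 (0.020; range -0.88 to 0.020). Of 196 genes followed, of which 191 were called, calls were lost with the sign kept for 17 with pan-T scaling, 12 with upper-quartile factors, 9 with limma-voom and none with DESeq2. The block ended 11 calls: Entpd1, Tbx21, Itga4, Btg2, Socs3, Relb, Isg20, Uqcrfs1, Cox5a, Cox6c and Phlda3. Without lymph node replicate 1, 2 or 3 it was 41, 54 and 50 calls, and without tumor replicate 1, 2 or 3 it was 6, 24 and 6. Low counts limit Il5, Csf2, Slc16a5, Nsg2 and Dapl1.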
